A study of Mus musculus with 8 samples.

Results

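The major urinary proteins (MUPs) and albumin were followed through RNA-seq read counts of mouse liver. The members are every row of the count table whose name, or any symbol within a joined name, starts with Mup and a number, which gave 12 rows, and the row of Alb, the gene of albumin, as a comparator, so 13 of 22946 rows in all. One of the 12 rows joins 11 symbols (Mup7, Mup2, Gm2083, LOC100048884, Mup19, Mup14, Mup15, Mup16, Mup17, Mup10 and Mup11) and is called the merged row. The other 11 are Mup1, Mup3, Mup4, Mup5, Mup6, Mup8, Mup9, Mup12, Mup13, Mup20 and Mup21.

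The 8 libraries came from livers of C57 Black mice that were put on a diet at 8 weeks of age and kept on it for 8 weeks. The groups were MLL4 het on a high fat diet (HFD, libraries 7 and 8), MLL4 het on chow (libraries 3 and 4), wild-type on HFD (libraries 5 and 6) and wild-type on chow (libraries 1 and 2). MLL4 is a histone methyltransferase encoded by Kmt2d, and the study asked which diet responses of the liver depend on it. The labels give neither the allele nor the sex of the mice. They do not tie libraries to animals, so the spread behind each p-value may not be that between animals. That spread was larger than counting error, with a chi-square over degrees of freedom of 15.8 to 17.3 within groups.

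Total counts ranged from 14142884 to 18928676 per library. Levels are in CPM, counts per 1e+06 counts of a library after scaling with TMM factors. Kmt2d stands in the table under its older symbol Mll2, with 62.8 and 75.4 CPM in MLL4 het HFD livers, 59.95 and 72.1 CPM in MLL4 het chow livers, 63.3 and 64.7 CPM in wild-type HFD livers and 61.2 and 69.6 CPM in wild-type chow livers, so the row was not lower in the het-labelled libraries. Its log2 change in MLL4 het against wild-type livers, averaged over the diets, was 0.061 ± 0.088 (SE, adjusted p = 0.747), and whether the row covers a deleted stretch is not given in the sources used here. The libraries carried liver RNA, since 8 of 8 hepatocyte markers were present and summed to between 22710 and 28205 CPM, while 5 of 5 markers of exocrine pancreas were at 0. Y-linked Ddx3y stood at 60.1 to 78.3 CPM and Xist, which is transcribed from the inactive X chromosome of females, had 1 to 9 counts in every library. Markers of Kupffer cells, the resident macrophages, summed over 9 rows to 168 to 263 CPM in MLL4 het HFD, 384 to 464 CPM in MLL4 het chow, 158 to 162 CPM in wild-type HFD and 158 to 170 CPM in wild-type chow libraries. Markers of red blood cells summed over 3 rows to 350 to 371 CPM in MLL4 het HFD, 240 to 253 CPM in MLL4 het chow, 654 to 828 CPM in wild-type HFD and 258 to 320 CPM in wild-type chow libraries. None of these rows was at 0 in every library, and their part in the results on MUPs and albumin was not tested.

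MUPs are small secreted proteins of the lipocalin family that bind volatile pheromones in a central pocket. In mice the liver makes them in large amounts, more in males than in females, and they pass through the kidney into urine, where they release their ligands slowly and mark the identity of the owner. Liver Mup transcription is known to respond to the pulses of growth hormone, to androgens, to thyroid hormone and to glucocorticoids. Albumin, the main protein of blood plasma, carries fatty acids, hormones and drugs, and its gene is a classic marker of hepatocytes.

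How far the rows can be told apart by sequence sets what each count means, so a stretch of coding sequence is shown for members of each kind. The stretch is bases 67 to 126 of the Mup2 coding sequence in GENCODE M21 (build GRCm38, chromosome 4) and the bases aligned to it in 7 other genes, chosen as the gapless 60 bases with most differences. Capitals mark bases that differ from Mup2.
Mup2: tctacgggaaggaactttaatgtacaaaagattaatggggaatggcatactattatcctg
Mup7: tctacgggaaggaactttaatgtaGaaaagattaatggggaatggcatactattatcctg
Mup1: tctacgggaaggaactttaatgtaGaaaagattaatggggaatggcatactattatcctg
Mup9: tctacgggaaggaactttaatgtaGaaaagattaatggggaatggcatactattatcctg
Mup20: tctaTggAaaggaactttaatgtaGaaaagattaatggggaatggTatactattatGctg
Mup5: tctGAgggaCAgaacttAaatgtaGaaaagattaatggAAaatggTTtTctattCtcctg
Mup3: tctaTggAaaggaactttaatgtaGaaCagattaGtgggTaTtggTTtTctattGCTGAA
Mup21: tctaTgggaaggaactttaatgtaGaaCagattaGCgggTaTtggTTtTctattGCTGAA
Mup7, Mup1 and Mup9 differed from Mup2 at 1 base of this stretch, Mup20 at 5, Mup5 at 12, and Mup3 and Mup21 at 16 each. Over the whole coding sequence, the 9 genes of the merged row that could be matched were 98.5% to 99.8% identical in each of 36 pairs, with 1 to 8 differing bases. Mup1, Mup8, Mup9, Mup12 and Mup13, which have rows of their own, were 98.3% to 99.8% identical to those 9 genes. Mup20 was 90.6% to 91.5%, Mup5 was 89.6% to 90.7%, Mup3 was 85.1% to 86.0% and Mup21 was 84.1% to 85.0% identical to them.

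Short stretches of the transcripts show the same division. Of all windows of 50 bases in the Mup2, Mup15 and Mup19 transcripts, 0% were found in that gene alone among the Mup transcripts and Alb. The share was 5.24% for Mup1, 5.69% for Mup7, 6.16% for Mup8, 6.39% for Mup13, 7.85% for Mup9 and 14.6% for Mup12. It was 80.9% for Mup21, 83.9% for Mup5, 85.1% for Mup3, 95.3% for Mup20 and 100% for Alb. How reads with several matches were counted is not given in the sources used here. The split of counts between the merged row, Mup1, Mup8, Mup9, Mup12 and Mup13 is therefore uncertain. The sum over all Mup rows does not depend on that split. It does depend on whether such reads were left out or counted in several rows. The size of the Mup share and of the Mup to Alb ratio is uncertain to that extent. Names add to this, because 17 of the 22 symbols in the Mup rows are also listed by RefSeq (GRCm38.p6) as an older name of another Mup gene.

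The genes lie side by side on mouse chromosome 4. Along RefSeq's GRCm38.p6 assembly, used for order alone because the counts are on mm9, Mup4 and Mup6 stand first and second of 22 Mup genes, and Mup5, Mup20, Mup3 and Mup21 stand at places 19, 20, 21 and 22. Every symbol of the merged row that could be placed, and Mup1, Mup8, Mup9, Mup12 and Mup13, stands between these flanks, at places 3 to 18. The less similar genes are thus the outer ones.

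Promoter sequences from RefSeq (GRCm38.p6, 250 bases before and 50 after the annotated start) were matched for 14 Mup genes and Alb; Mup1, Mup5, Mup8, Mup12, Mup13, Mup16 and Mup20 are named only. They are shown for Mup2, of the merged row, for Mup21, whose ratio to the merged row varied most among the well-counted rows, and for Alb. Capitals mark TATATAAG, a TATA-type element, in the Mup promoters. In the Alb promoter they mark TTATGTAA, letters that PAR bZIP factors such as Dbp can recognise, on either strand.
Mup2, chr4:60139807-60140106, minus strand: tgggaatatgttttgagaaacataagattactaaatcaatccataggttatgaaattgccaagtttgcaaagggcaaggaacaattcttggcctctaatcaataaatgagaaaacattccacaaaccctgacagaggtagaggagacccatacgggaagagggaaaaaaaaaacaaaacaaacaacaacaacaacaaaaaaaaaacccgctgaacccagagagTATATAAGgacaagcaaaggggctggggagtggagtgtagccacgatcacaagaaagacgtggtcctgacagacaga
Mup21, chr4:62150792-62151091, minus strand: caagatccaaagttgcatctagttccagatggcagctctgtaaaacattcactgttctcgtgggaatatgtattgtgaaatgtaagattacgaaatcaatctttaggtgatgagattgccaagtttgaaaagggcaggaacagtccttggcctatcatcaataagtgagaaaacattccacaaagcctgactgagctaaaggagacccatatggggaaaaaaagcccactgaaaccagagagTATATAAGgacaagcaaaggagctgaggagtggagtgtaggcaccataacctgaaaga
Alb, chr5:90460620-90460919, plus strand: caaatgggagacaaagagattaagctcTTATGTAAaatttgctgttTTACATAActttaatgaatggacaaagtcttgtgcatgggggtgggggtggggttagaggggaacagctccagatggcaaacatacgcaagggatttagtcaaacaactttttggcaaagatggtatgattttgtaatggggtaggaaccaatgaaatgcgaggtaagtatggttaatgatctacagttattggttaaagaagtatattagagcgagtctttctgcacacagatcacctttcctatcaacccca
The Mup2 and Mup21 windows were 87.1% identical over 240 aligned bases, Mup2 and Mup11 were 99.6% identical over 272, and Mup3 and Mup21 were 93.9% identical over 294. TATATAAG, searched on both strands, was present in 11 of 14 Mup promoters and in 1.01% of 32851 promoters. Mup18, which has a match, is not a symbol of any row. Many of the 14 promoters are close copies, so their matches are not independent. Mup4, Mup6 and Mup7 had no match. Mup4 and Mup6 hold TATATAAA at the aligned place, and the Mup7 window ends upstream of it. The match began 27 bases before the annotated start in Mup2 and 8 before it in Mup21, so annotated starts differ in place. TTATGTAA was present in Alb, once on each strand, in 0 of 14 Mup promoters and in 0.938% of all promoters. The matches in Alb began 223 and 204 bases before the annotated start, and binding of Dbp to them was not tested. TTCNNNGAA, the letters bound by Stat5, was in 0 of 14 Mup promoters and in 8.30% of all. A match is a description of the letters only.

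MUP transcripts made up at least 10.9% of the counts of every library, and their share was highest in the MLL4 het livers on HFD. Summed over the 12 rows, they took 18.8% and 18.95% in MLL4 het HFD livers, 18.7% and 16.2% in MLL4 het chow livers, 14.2% and 16.7% in wild-type HFD livers and 10.9% and 14.3% in wild-type chow livers. The highest and tightest pair was MLL4 het HFD, and library 1 of wild-type chow was the lowest of all 8. Counting error was negligible beside this spread, with an exact 95% binomial interval of at most 0.0204 percentage points on either side for the sum (intervals and floors cover counting error only). The merged row was the largest row of the table, with 13.5% and 13.5% in MLL4 het HFD livers, 13.6% and 11.6% in MLL4 het chow livers, 10.1% and 11.9% in wild-type HFD livers and 7.42% and 9.94% in wild-type chow livers. Alb was the second. The largest rows that are not members were Scd1, a fatty acid desaturase, Apoe, an apolipoprotein, Serpina3k, a protease inhibitor, Trf, the iron carrier transferrin, and Serpina1c, an antitrypsin, with 1.59%, 1.42%, 1.146%, 0.950% and 0.784% of all counts. Together the Mup rows and Alb took between 17.1% and 24.9% of a library.

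**Figure D1:**
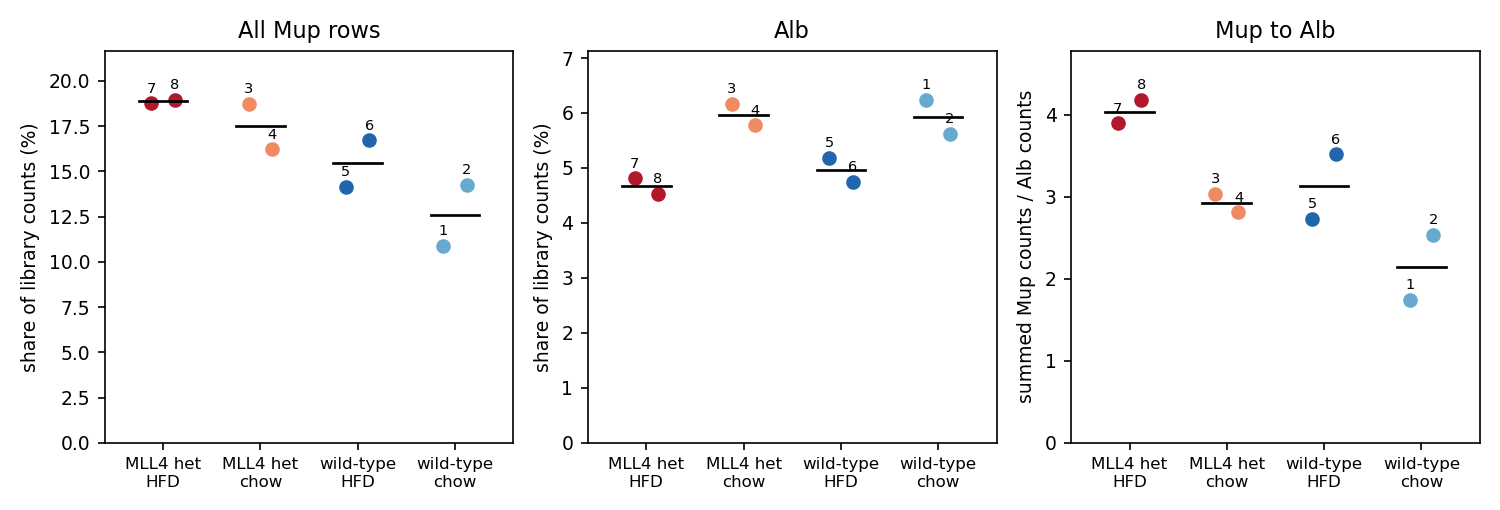
Share of all counts of a library (%) for the summed Mup rows (left) and Alb (middle), and the summed Mup counts divided by Alb counts (right); points are single libraries labelled with their numbers and bars are means of 2. The 2 MLL4 het HFD libraries have the highest Mup share (18.8% and 18.95%) and Mup to Alb ratio (3.89 and 4.18), and the 4 chow libraries have the highest Alb share (5.62% to 6.24%).

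Alb was lower on HFD in every library of either genotype. It took 4.82% and 4.53% in MLL4 het HFD livers, 6.17% and 5.77% in MLL4 het chow livers, 5.18% and 4.75% in wild-type HFD livers and 6.24% and 5.62% in wild-type chow livers. No HFD library reached the lowest chow library, so the diets did not overlap within or across genotypes. The mean over 4 libraries was 4.82% ± 0.272 on HFD and 5.95% ± 0.300 on chow (SD, n = 4 each), a difference of -1.13 percentage points, with p = 0.0556 in an exact 2-sided permutation test within genotype. That is the smallest p its 36 arrangements allow, so this design cannot reach 0.05, and adjusted over the 26 tests of shares it was 0.131. In the edgeR quasi-likelihood fit across all rows, the log2 change of Alb on HFD was -0.33 ± 0.14 (SE, adjusted p = 0.269) in MLL4 het livers, -0.23 ± 0.14 (SE, adjusted p = 0.432) in wild-type livers and -0.28 ± 0.10 (SE, adjusted p = 0.122) averaged over the genotypes. None of these passed the threshold of 0.05. For the average DESeq2 gave an adjusted p of 0.00745, and edgeR with no filter on low rows gave 0.0133, so the call depends on the tool and on the filter. Between the genotypes, Alb differed by -0.079 ± 0.14 (SE, adjusted p = 0.859) on HFD and by 0.016 ± 0.14 (SE, adjusted p = 0.972) on chow, the second of which changed sign with DESeq2 size factors.

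The summed MUP share was higher in MLL4 het than in wild-type livers on either diet. Averaged over 4 libraries it was 18.2% ± 1.29 in MLL4 het livers and 14.01% ± 2.39 in wild-type livers (SD, n = 4 each), a difference of 4.16 percentage points with an exact permutation p of 0.0556 within diet, again the smallest possible (0.131 adjusted over 26 tests). On HFD the MLL4 het libraries lay above both wild-type libraries, and on chow they did too. By diet, the share was 17.1% ± 2.24 on HFD and 15.0% ± 3.31 on chow (SD, n = 4 each), a difference of 2.12 points (exact permutation p = 0.167). In MLL4 het livers the HFD libraries lay just above library 3 on chow, and in wild-type livers library 5 on HFD lay just below library 2 on chow, so the diets overlapped in wild-type livers only.

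In the fit across all rows, with the 12 Mup rows replaced by their sum, the summed level did not pass the threshold in any comparison. The log2 change was 0.39 ± 0.15 (SE, 95% interval 0.056 to 0.72, adjusted p = 0.180) in MLL4 het against wild-type livers averaged over the diets, which is a 1.31-fold difference. It was 0.29 ± 0.21 (SE, adjusted p = 0.582) on HFD and 0.48 ± 0.21 (SE, adjusted p = 0.316) on chow. DESeq2 gave an adjusted p of 0.0220 for the average, and edgeR without the filter on low rows gave 0.0393. For HFD against chow the log2 change was 0.13 ± 0.21 (SE, adjusted p = 0.799) in MLL4 het livers and 0.32 ± 0.21 (SE, adjusted p = 0.462) in wild-type livers, and the interaction of genotype and diet was -0.19 ± 0.29 (SE, adjusted p = 0.896). Without 1 library the genotype difference ran 0.15 (library 5) to 0.45 (library 6) on HFD and 0.27 (library 1) to 0.71 (library 2) on chow, and the diet difference 0.017 (library 4) to 0.26 (library 3) in MLL4 het and 0.095 (library 1) to 0.55 (library 2) in wild-type livers, where it was 0.16 without library 6. In bulk tissue a change in the number of hepatocytes and a change in RNA per cell cannot be told apart.

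The ratio of MUP to albumin counts was higher on HFD than on chow in each genotype and higher in MLL4 het than in wild-type livers on each diet. Summed Mup counts were 3.89 and 4.18 in MLL4 het HFD livers, 3.04 and 2.81 in MLL4 het chow livers, 2.73 and 3.52 in wild-type HFD livers and 1.75 and 2.54 in wild-type chow livers times the Alb counts. Both HFD libraries were above both chow libraries in each genotype, and both MLL4 het libraries were above both wild-type libraries on each diet. The ratio does not depend on how libraries are scaled. Its log2 was 1.82 ± 0.269 on HFD and 1.31 ± 0.354 on chow (SD, n = 4 each), a difference of 0.51 with an exact permutation p of 0.0556. Between the genotypes it was 1.78 ± 0.276 in MLL4 het and 1.35 ± 0.418 in wild-type livers, a difference of 0.43 with the same p. Both are the smallest p this test allows, and both were 0.0784 after adjustment over 24 tests of ratios to Alb. Most of those tests reached the same smallest p. They share the Alb counts and near-identical Mup rows, so they are not independent. Within MLL4 het livers the diet difference was 0.47 on the log2 scale and within wild-type livers it was 0.56, with no test for groups of 2. On HFD the genotypes differed by 0.38 and on chow by 0.47.

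Per length of transcript, members can be set beside each other. With GENCODE M21 transcript lengths, Alb stood at 22408 to 30470.2 CPM per kb over the 8 libraries, Mup3 at 7120 to 8720 and Mup20 at 5793 to 9636. Mup21 was at 276 to 494 CPM per kb and Mup5, which is known best from salivary and lacrimal glands, at 52.2 to 99.1. The merged row, divided by the median transcript length of its 9 matched genes, stood at 78231 to 148003 CPM per kb, but it adds up several genes. Mup6 had 2 to 16 counts per library, so 0.154 to 0.945 CPM per kb. Mup4, known from the nose and glands of the head, had 0 counts in all 8 libraries, which allows a level of up to 0.161 to 0.213 CPM (3 counts) in each.

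The near-identical central genes kept nearly fixed ratios to one another. The merged row had 137198 and 135432 CPM in MLL4 het HFD livers, 136551 and 114591 CPM in MLL4 het chow livers, 99168 and 122569.8 CPM in wild-type HFD livers and 72520.1 and 99839 CPM in wild-type chow livers. Library 1 of wild-type chow was the lowest of the 8, and within each diet both MLL4 het libraries lay above both wild-type libraries. Mup1 had 10007 and 10140.1 CPM in MLL4 het HFD livers, 9778 and 8310.0 CPM in MLL4 het chow livers, 6734 and 8605 CPM in wild-type HFD livers and 5145 and 7151 CPM in wild-type chow livers. As with the merged row, the genotypes did not overlap on either diet. Over the 8 libraries, the ratio of counts to the merged row varied by a CV of 2.86% for Mup1, 2.37% for Mup12, 2.51% for Mup13, 2.42% for Mup8 and 3.62% for Mup9. Among the rows other than the merged row, these had the smallest shares of 50-base windows found in that gene alone. The part of shared reads in these ratios was not tested. Mup5, with 83.9% of its windows its own, also kept a ratio within 1.18-fold from lowest to highest (CV 5.92%) at 766 to 1708 counts per library. That ratio was only 0.000579 to 0.000684, and the part of reads from the merged genes in it was not tested.

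**Figure D2:**
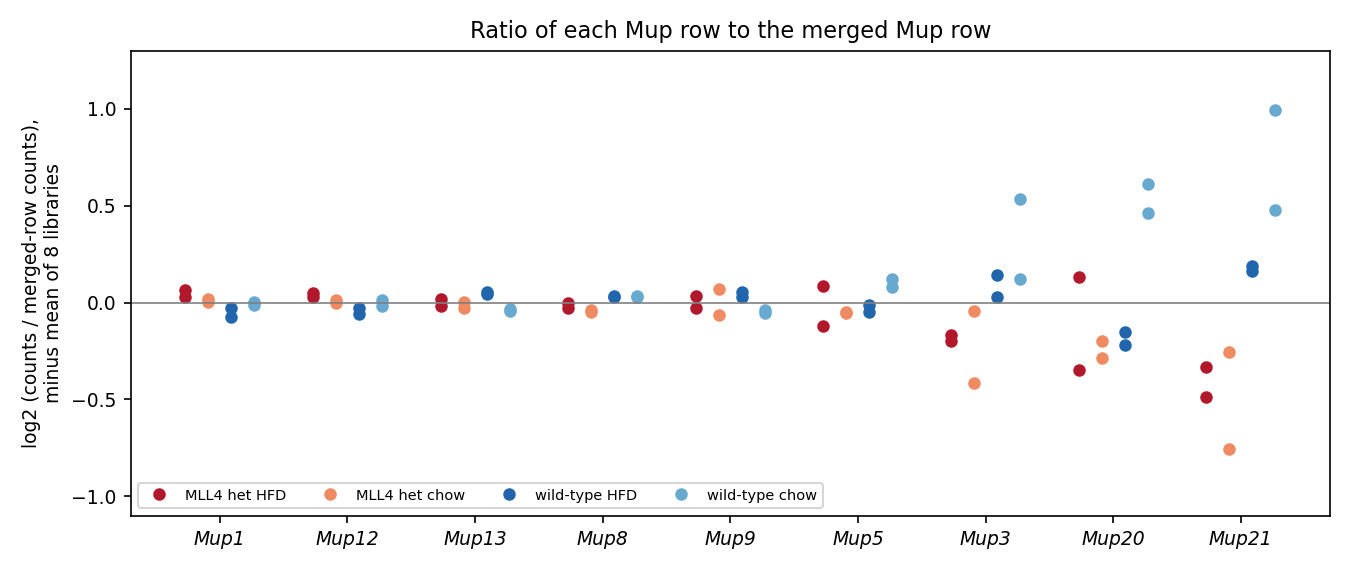
Counts of each Mup row divided by counts of the merged Mup row, as log2 minus the mean of the 8 libraries (vertical axis), for 9 Mup rows (horizontal axis); each point is a library, coloured by group. Mup1, Mup12, Mup13, Mup8 and Mup9 stay near 0, while Mup3, Mup20 and Mup21 each have their highest ratio in a wild-type chow library.

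The outer genes Mup3, Mup20 and Mup21 did not keep such fixed ratios. Their ratios to the merged row had a CV of 20.7%, 27.2% and 42.4% over the 8 libraries, and the highest ratio was 1.93, 1.95 and 3.36 times the lowest. Mup21 counts were 0.00184 and 0.00165 in MLL4 het HFD livers, 0.00137 and 0.00194 in MLL4 het chow livers, 0.00264 and 0.00259 in wild-type HFD livers and 0.00461 and 0.00322 in wild-type chow livers times those of the merged row. All 4 MLL4 het libraries lay below all 4 wild-type libraries. On the log2 scale the Mup21 ratio was lower in MLL4 het than in wild-type livers by a difference of -0.91, and the Mup3 ratio by -0.41, each with an exact permutation p of 0.0556 within diet, the smallest possible, and 0.317 after adjustment over the 20 tests of ratios to the merged row. The Mup8 ratio, whose difference was only -0.061, reached the same p. For Mup20 the difference was -0.35 with p = 0.222 in the same exact permutation test.

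With edgeR and the filter on low rows, Mup21 was the only member that passed the threshold in any of the 7 comparisons, and it was lower in MLL4 het livers, where the central rows were higher without passing. It had 252 and 224 CPM in MLL4 het HFD livers, 187 and 222 CPM in MLL4 het chow livers, 262 and 317 CPM in wild-type HFD livers and 334 and 321 CPM in wild-type chow livers. Every MLL4 het library was below every wild-type library. In MLL4 het against wild-type livers, averaged over the diets, its log2 change was -0.48 ± 0.087 (SE, 95% interval -0.68 to -0.28, adjusted p = 0.0284), a fall to 0.716 of the wild-type level. In this comparison 1 of 11 tested Mup rows was called, against 3.24% of the 12593 rows tested (1.21% higher and 2.03% lower). On chow the change was -0.68 ± 0.12 (SE, adjusted p = 0.0607) and on HFD it was -0.28 ± 0.12 (SE, adjusted p = 0.354). The averaged call did not hold when any one of 5 libraries was left out (1, 2, 3, 6 or 8), where the adjusted p reached 0.0898, 0.111, 0.0670, 0.0785 and 0.0665, while the log2 change stayed between -0.55 and -0.41 without any single library. DESeq2 also called it, on chow (adjusted p = 0.000281) and on average. Averaged over the diets, edgeR without the filter called 6 of 11 Mup rows, against 4.44% of all rows: Mup21, and higher in MLL4 het livers Mup1 (adjusted p = 0.0208), Mup12 (0.0246), the merged row (0.0352), Mup13 (0.0427) and Mup9 (0.0471). DESeq2 called 6 as well, while the other scalings of the filtered rows called 1. Counting error does not set this spread, because the row held 2640 to 5800 counts per library.

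Mup3 stayed between 7006 and 8581 CPM. It had 8191 and 8258 CPM in MLL4 het HFD livers, 7006 and 7627 CPM in MLL4 het chow livers, 7490.3 and 8581 CPM in wild-type HFD livers and 7196 and 7432 CPM in wild-type chow livers. All 8 libraries lay within a range narrower than that of the merged row, and on HFD the genotypes overlapped, as they did on chow. Its log2 change in MLL4 het against wild-type livers was 0.017 ± 0.081 (SE, adjusted p = 0.934) averaged over the diets and 0.00056 ± 0.11 on chow, where the sign turned under DESeq2 size factors, with no scaling factor and without the filter. On HFD against chow it was 0.17 ± 0.11 (SE, adjusted p = 0.497) in MLL4 het and 0.14 ± 0.11 (SE, adjusted p = 0.580) in wild-type livers.

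Mup20 encodes darcin, the male pheromone that attracts females. It had 6494 and 8942 CPM in MLL4 het HFD livers, 6763 and 6024 CPM in MLL4 het chow livers, 5376 and 6361 CPM in wild-type HFD livers and 6686 and 8285 CPM in wild-type chow livers. In wild-type livers both HFD libraries were below both chow libraries, whereas in MLL4 het livers library 8 on HFD was the highest of all and library 7 lay between the chow pair. The log2 change on HFD was 0.27 ± 0.18 (SE, adjusted p = 0.481) in MLL4 het and -0.35 ± 0.18 (SE, adjusted p = 0.335) in wild-type livers. The difference between these diet effects, the interaction, was 0.62 ± 0.25 (SE, 95% interval 0.048 to 1.198, adjusted p = 0.690) with an unadjusted p of 0.0368. In MLL4 het against wild-type livers Mup20 changed by 0.40 ± 0.18 on HFD and -0.23 ± 0.18 on chow, neither of which passed. Without library 8 the diet change in MLL4 het livers was 0.025 and the interaction 0.38, and without library 7 they were 0.49 and 0.84. The diet change in wild-type livers ran -0.52 to -0.19, with -0.19 without library 2. The genotype change was 0.15 without library 8 and 0.61 without library 7 on HFD, and -0.066 without library 2 and -0.39 without library 1 on chow.

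For diet the Mup rows gave no calls in edgeR, and for genotype most had an unadjusted p under 0.05 on chow and on average. In HFD against chow, 0 of 11 tested Mup rows passed in MLL4 het livers, where 3.02% of rows were called (1.53% higher and 1.48% lower), and 0 of 11 in wild-type livers, where 4.59% were called (2.37% higher and 2.22% lower). Before adjustment, 0 and 2 of them had p under 0.05 in edgeR, against 18.2% and 19.1% of all rows, and DESeq2 also called 0 in either genotype, against 4.55% and 5.32% of all rows. In MLL4 het against wild-type livers 0 of 11 passed on HFD, where 0.445% of rows were called (0.0953% higher and 0.349% lower), and 0 of 11 on chow, where 0.516% were called (0.326% higher and 0.191% lower). Before adjustment, 2 and 7 of the 11 had p under 0.05, against 13.8% and 15.3% of all rows, and DESeq2 called 0 on HFD and 3 on chow, against 1.82% and 1.85% of all rows. Mup6 is 1 of the 2 on HFD. Averaged over the diets 8 of 11 had an unadjusted p under 0.05, against 20.4% of all rows, and DESeq2 called 6, against 4.84% of all rows. Averaged over the genotypes the diet comparison called 0 of 11 with edgeR, 1 of 11 at an unadjusted p under 0.05 and 0 with DESeq2, where edgeR called 10.4% and DESeq2 9.11% of all rows and 25.3% had an unadjusted p under 0.05. The interaction called 0 Mup rows and 0% of all rows with edgeR, with 2 of 11 and 7.15% at an unadjusted p under 0.05, and DESeq2 called 0 Mup rows and 23 rows in all. Mup6 is among the 11 because wild-type HFD libraries had 14 and 16 counts, the other libraries having 2 to 8, too few to describe a level.

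Counts of rows whose groups did not overlap were larger than counts of calls. In MLL4 het against wild-type livers, the CPM of the groups did not overlap for 8 of 11 Mup rows in the higher direction on HFD and for 7 of 11 on chow, against 22.8% and 24% of all rows. For 2 of 11 on HFD and 1 of 11 on chow the MLL4 het libraries were lower, against 24.3% and 21.9%. In HFD against chow, 4 of 11 were higher and 0 lower in MLL4 het livers, against 22.3% and 22.4%, and 4 of 11 were higher and 2 lower in wild-type livers, against 30.6% and 25.2%. Without Mup6, whose counts passed the filter through the wild-type HFD libraries, 8 of 10 were higher and 1 lower for genotype on HFD, and 3 of 10 higher and 2 lower for diet in wild-type livers, and the other counts were 7 and 1 of 10 for genotype on chow and 4 and 0 for diet in MLL4 het livers. The rows share reads and are not independent, so these counts are a description. Over the 11 Mup rows, Mup6 included, the median log2 change in MLL4 het against wild-type livers was 0.26 on HFD and 0.47 on chow. That of all rows was 0.0022 and 0.014. The comparisons share libraries, and each is given for itself.

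**Figure D3:**
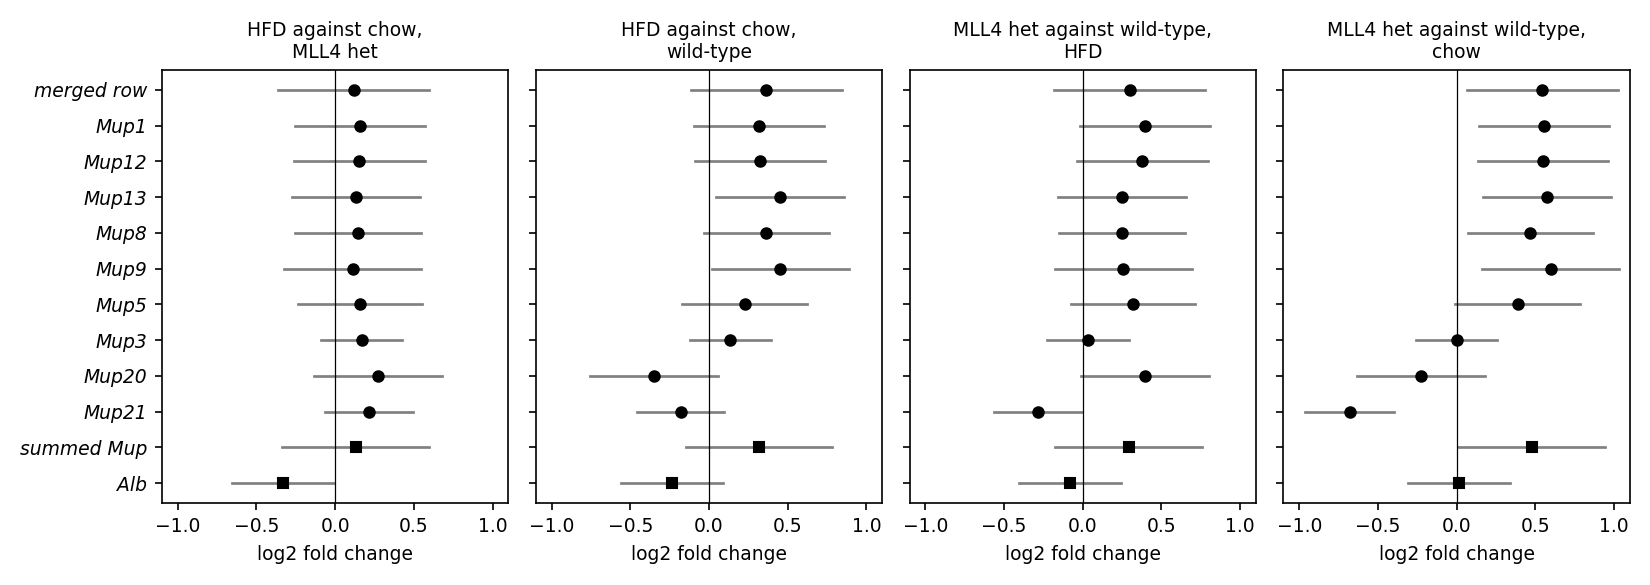
Log2 fold change with its 95% interval (grey line) for the merged row, 9 other Mup rows, the summed Mup rows and Alb (squares for the last pair), in HFD against chow and MLL4 het against wild-type livers; Mup4 and Mup6 are not drawn. On chow the central Mup rows lie between 0.47 and 0.60 and Mup21 lies at -0.68.

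Other plasma proteins made by the liver were lower on HFD more often than higher. Among 37 plasma proteins tested, 0 were higher and 5 lower on HFD in MLL4 het livers, where 1.53% of all rows were called higher and 1.48% lower. In wild-type livers 0 were higher and 8 lower, against 2.37% and 2.22% of all rows. Averaged over the genotypes 1 was higher and 15 lower, against 5.56% and 4.84% of all rows. The median log2 change of that average was -0.25, against 0.0073 for all rows. The strongest were the complement component C3 at -0.99 ± 0.09 (SE, adjusted p = 0.000540), the antitrypsin Serpina1e at -1.496 ± 0.16 (SE, adjusted p = 0.00109), the heme carrier hemopexin (Hpx) at -0.56 ± 0.07 (SE, adjusted p = 0.00204) and the inter-alpha-trypsin inhibitor chain Itih3 at -0.71 ± 0.092 (SE, adjusted p = 0.00234). Reads of Serpina1e may be shared with its close copies. The one that rose was Apoe, at 0.35 ± 0.092 (SE, adjusted p = 0.0463), a call kept in 1 of 8 fits with a library left out. In those fits 8 to 15 of the 37 fell on average, 0 to 4 in MLL4 het and 2 to 10 in wild-type livers, and C3, Serpina1e, Hpx and Itih3 were called on average in all 8. In MLL4 het against wild-type livers 0 of 37 passed on either diet, against 0.445% of all rows on HFD and 0.516% on chow.

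Of 9 other lipocalins tested, the family to which the MUPs belong, 3 fell on HFD in each genotype and 0 rose, where 1.48% of all rows were called lower in MLL4 het and 2.22% in wild-type livers. These were Apom, which carries sphingosine phosphate in high density lipoprotein, and the acute phase proteins Orm1 and Orm2. Orm1 had 322 and 397 CPM in MLL4 het HFD livers, 579 and 579.6 CPM in MLL4 het chow livers, 373 and 325 CPM in wild-type HFD livers and 620.4 and 661 CPM in wild-type chow livers. The diets did not overlap. The log2 change of Orm1 was -0.69 ± 0.12 (SE, adjusted p = 0.0230) in MLL4 het and -0.88 ± 0.12 (SE, adjusted p = 0.00591) in wild-type livers, and that of Apom was -0.70 ± 0.11 (SE, adjusted p = 0.0153) and -0.90 ± 0.11 (SE, adjusted p = 0.00373). In MLL4 het against wild-type livers 0 of 9 passed on either diet, against 0.445% of all rows on HFD and 0.516% on chow. Among the 4 genes of the albumin family, the fetal albumin Afp had 2.09 and 1.71 CPM in MLL4 het HFD livers, 1.77 and 2.31 CPM in MLL4 het chow livers, 2.60 and 2.46 CPM in wild-type HFD livers and 1.197 and 1.101 CPM in wild-type chow livers. It rose on HFD in wild-type livers by 1.13 ± 0.26 (SE, adjusted p = 0.0442), a call kept in 2 of the 8 fits that left out 1 library. Afamin (Afm), a vitamin E carrier, fell on HFD averaged over the genotypes, with a log2 change of -0.22 ± 0.058 (SE, adjusted p = 0.0435), a call kept in 1 of those 8 fits. With 1 library left out, 2 to 3 of the 9 lipocalins fell in each genotype; the call of Orm1 in MLL4 het livers was lost without library 1, 2, 3, 4 or 7 and in wild-type livers without library 2.

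**Figure D4:**
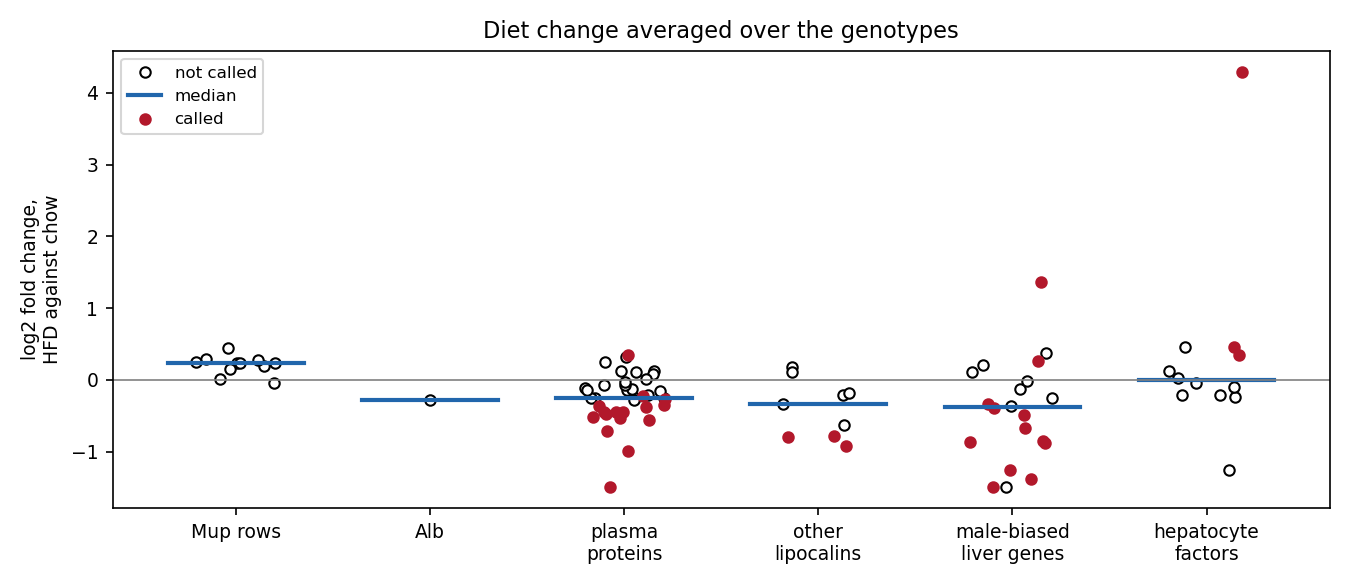
Log2 fold change of HFD against chow averaged over the genotypes (vertical axis) for the Mup rows, Alb and members of 4 gene lists (horizontal axis); each point is a row, filled where called at an adjusted p under 0.05, and blue bars are medians. The medians are 0.24 for the Mup rows, -0.25 for the plasma proteins and -0.34 for the other lipocalins. Mup6, with 2 to 16 counts per library, is among the Mup rows drawn and is the highest of them, at 0.45.

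MUPs are a textbook set of male-biased liver genes. Of 20 other male-biased genes, 0 rose and 9 fell on HFD in wild-type livers, where 2.37% of all rows were called higher and 2.22% lower, and 1 rose and 3 fell in MLL4 het livers, where 1.53% were called higher and 1.48% lower. Their median log2 changes were -0.56 in wild-type and -0.18 in MLL4 het livers. In wild-type livers the strongest were the glutathione transferases Gstp2 at -1.24 ± 0.12 (SE, adjusted p = 0.00163) and Gstp1 at -1.23 ± 0.13 (SE, adjusted p = 0.00222), the complement component C8b at -1.27 ± 0.14 (SE, adjusted p = 0.00263) and the selenium-binding protein Selenbp2 at -1.93 ± 0.23 (SE, adjusted p = 0.00361). These 4 calls held in 8 of 8 fits with a library left out, in which 6 to 9 of the 20 fell in wild-type and 0 to 4 in MLL4 het livers. Gstp1 and Gstp2 are near-identical copies whose reads may be split. In MLL4 het livers Serpina12, an adipokine, rose by 1.92 ± 0.30 (SE, adjusted p = 0.0170), and Ugt2b38, Cyp7b1 and Serpina1e fell. On HFD 2 of 20 were higher in MLL4 het than in wild-type livers, where 0.0953% of all rows were called higher and 0.349% lower. These were Gstp2 at 0.80 ± 0.12 (SE, adjusted p = 0.0337) and Gstp1 at 0.77 ± 0.13 (SE, adjusted p = 0.0473). On chow 0 of 20 passed, where 0.326% of all rows were called higher and 0.191% lower. Averaged over the diets 2 of 20 were higher and 1 lower, where 1.21% of all rows were called higher and 2.03% lower. The higher ones were Gstp2 (adjusted p = 0.0340) and Gstp1 (adjusted p = 0.0443). The fatty acid hydroxylase Cyp4a12b was lower, at -0.67 ± 0.13 (SE, adjusted p = 0.0325), a call lost without library 1, 2, 5 or 8. The genotype calls of Gstp1 and Gstp2 on HFD were lost without library 1, 2, 5, 6 or 8, and those on average without library 1, 2, 3, 5, 6 or 8.

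Of 11 female-biased genes tested, 0 rose and 1 fell on HFD in MLL4 het livers, against 1.53% higher and 1.48% lower of all rows, and 1 rose and 3 fell in wild-type livers, against 2.37% and 2.22%. The one that rose was Cyp17a1, a steroid hydroxylase, at 2.07 ± 0.36 (SE, adjusted p = 0.0157), and Cyp3a44, Cyp3a16 and Cyp2a4 fell. On chow 1 of 11, Cyp2b9, was higher in MLL4 het than in wild-type livers, at 5.93 ± 0.98 (SE, adjusted p = 0.0482). In that comparison 0.326% of all rows were called higher. It had 11.8 and 0.853 CPM in MLL4 het HFD livers, 32.9 and 34.6 CPM in MLL4 het chow livers, 5.02 and 9.95 CPM in wild-type HFD livers and 0.882 and 0.232 CPM in wild-type chow livers. The 2 wild-type chow libraries and MLL4 het HFD library 8 were the low ones, and the call was lost without library 1, 2, 3, 5 or 6. That of Cyp17a1 was lost without library 1, 2 or 5, and those of Cyp3a44, Cyp3a16 and Cyp2a4 without library 1, 2, 5 or 6.

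A list of genes tied to the hormones that act on Mup transcription, with hormone receptors and growth hormone targets, gave few calls in single comparisons. Of 16 genes tested, 1 rose on HFD in MLL4 het livers and 0 in wild-type livers, against 1.53% and 2.37% of all rows called higher. In these comparisons 0 fell, against 1.48% and 2.22% called lower. Between the genotypes 0 passed on either diet, against 0.445% of all rows on HFD and 0.516% on chow. Averaged over the genotypes, 1 rose and 3 fell on HFD, where 5.56% of all rows were called higher and 4.84% lower. The thyroid hormone receptor Thrb rose by 0.33 ± 0.08 (SE, adjusted p = 0.0331). The growth hormone targets Igf1, which encodes the circulating growth factor, Igfals, which encodes a carrier of it, and Socs2, a feedback inhibitor, fell, at -0.56 ± 0.14 (SE, adjusted p = 0.0368), -0.46 ± 0.12 (SE, adjusted p = 0.0468) and -2.98 ± 0.80 (SE, adjusted p = 0.0481). Socs2 had 1.61 and 23.5 CPM in MLL4 het HFD livers, 19.7 and 49.7 CPM in MLL4 het chow livers, 1.56 and 0.820 CPM in wild-type HFD livers and 42.0 and 9.97 CPM in wild-type chow livers. Library 8 of MLL4 het HFD was far above library 7, and the diets overlapped in MLL4 het livers. With a library left out, these 4 calls were kept in 2 of 8 fits for Thrb, 3 for Igf1, 1 for Igfals and 4 for Socs2.

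Among 12 hepatocyte transcription factors, some of which act on the Alb promoter, 1 rose on HFD in wild-type livers and 2 in MLL4 het livers. Averaged over the genotypes 3 rose, and 0 fell in each of these comparisons. Of all rows, 2.37%, 1.53% and 5.56% were called higher and 2.22%, 1.48% and 4.84% lower, in the same order. The 1 in wild-type livers was Dbp, the D-site binding protein, an output of the circadian clock. Letters that PAR bZIP factors can recognise are marked in the Alb promoter above, and whether they are the D-site was not tested. Dbp had 16.4 and 11.02 CPM in MLL4 het HFD livers, 0.354 and 0.408 CPM in MLL4 het chow livers, 13.1 and 2.90 CPM in wild-type HFD livers and 0.504 and 0.928 CPM in wild-type chow livers. All HFD libraries were above all chow libraries. Its log2 change was 5.15 ± 0.83 (SE, adjusted p = 0.0196) in MLL4 het and 3.45 ± 0.75 (SE, adjusted p = 0.0371) in wild-type livers. Alb was lower in level on HFD, at -0.28 ± 0.10 averaged over the genotypes, and did not pass. A link between Dbp and Alb was not tested. Cebpa, a bZIP factor of differentiated hepatocytes, rose by 0.46 ± 0.076 (SE, adjusted p = 0.00702) averaged over the genotypes. The call of Dbp was lost without library 3 or 4 in MLL4 het and without library 1, 2 or 5 in wild-type livers, while that of Cebpa held in 8 of 8 fits. The time of day of collection is not given in the sources used here.

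Among 7377 rows with a mean of at least 10 CPM, those whose log2 CPM followed the summed MUP level most closely over the 8 libraries were the RNA helicase Dhx30 (Pearson r = 0.968), Kti12 (0.960), the histone acetyltransferase Kat2a (0.957), the RNA helicase Ddx24 (0.955) and the DNA damage checkpoint protein Rad17 (0.953). For Alb they were Prlr, the prolactin receptor (0.977), Stam (0.972), Uhrf1bp1l (0.967), Ccdc82 (0.964) and Vps13b (0.963). These are the highest of many values over 8 libraries that share the group structure and the scaling, and are given as a description.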

How the data were processed

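Liver RNA was sequenced in 8 libraries. The authors deposited unnormalised whole-number counts per gene symbol, as the values show, for 22946 rows, 374 of which join several symbols. The submitters' processing notes list mm9, TopHat2, HTSeq, CASAVA and DESeq with neither versions nor roles.

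Rows were filtered with filterByExpr of edgeR 4.0.16 (R 4.3.3), which kept 12593 rows, among them 11 of 12 Mup rows. TMM factors were used, and 4 group means entered a quasi-likelihood fit over all 8 libraries. P-values were 2-sided and Benjamini-Hochberg adjusted over all tested rows, and a row was called at an adjusted p under 0.05. Errors of log2 changes are SEs. Shares and count ratios were compared by exact permutation over libraries. Tested on simulated counts, the 4 comparisons of single groups recovered 74% to 81% of 2-fold and 95% to 98% of 4-fold changes. Smaller changes, such as those of most Mup rows and Alb, and the averaged and interaction comparisons were not simulated. Alternatives were DESeq2 1.42.0, other scalings, no filter on low rows, fits of the compared groups alone, and each library left out. No 2 libraries were identical: chi-square over degrees of freedom was 15.8 to 17.3 within groups.

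Members and lists were chosen with earlier results of these data known. The text names all members, up to 4 called genes of a list by adjusted p, the 5 largest other rows and the 5 rows most like the MUP sum and Alb; 1 called gene of a list is not reported here. Sequences came from GENCODE M21 and RefSeq (GRCm38.p6), using for each Mup gene the transcript whose coding length was nearest the family median.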

Additional observations from a re-analysis of the deposited data

Results flagged for a closer look

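The diet difference of Mup21 had opposite signs in the 2 genotypes. On HFD both MLL4 het libraries (252 and 224 CPM) were above both MLL4 het chow libraries (187 and 222 CPM), and both wild-type HFD libraries (262 and 317 CPM) were below both wild-type chow libraries (334 and 321 CPM). The gap in MLL4 het livers between library 8 on HFD and library 4 on chow was small. The log2 change on HFD was 0.22 ± 0.12 (SE, adjusted p = 0.406) in MLL4 het and -0.18 ± 0.12 (SE, adjusted p = 0.485) in wild-type livers, and the difference between them was 0.40 ± 0.17 (SE, 95% interval 0.0027 to 0.79, adjusted p = 0.690) in edgeR, with an unadjusted p of 0.0488. It is given as a value, and was not called in any alternative fit.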

How the results depend on the processing

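Scaling by DESeq2 size factors, and totals without the Mup rows and Alb, left every count of called rows within 1.5 times its value. Library totals with no scaling raised the count of the genotype comparison on HFD to 92, against 56. With no filter on low rows 680 rows were called for diet in MLL4 het livers, 258 for genotype on HFD, 314 on chow, 760 averaged over diets and 8 for the interaction, against 380, 56, 65, 408 and 0. DESeq2 called 229 for genotype on HFD, 219 on chow and 23 for the interaction, and of its calls on chow 40.6% were higher in MLL4 het, against 63.1% with edgeR. Fits of the compared groups alone called 1351 rows for diet in wild-type livers, 105 in MLL4 het livers and 26 for genotype on HFD, against 578, 380 and 56. The summed Mup level was called higher in MLL4 het over the diets with no filter (log2 change 0.37) and with DESeq2 (0.38). Keeping only rows in which every symbol is a Mup gene left out the merged row, which held 68.1% to 72.5% of the Mup counts of a library. The share differences were then 0.538 points for diet in wild-type livers, 0.932 for genotype on HFD and 0.967 on chow. Over all 12 rows they were 2.85, 3.42 and 4.90. Over those 12 rows and without 1 library they ran 1.17 (library 1) to 4.54 (library 2), 2.15 (library 5) to 4.70 (library 6) and 3.22 (library 1) to 6.59 (library 2). For diet in MLL4 het livers the difference ran 0.128 (library 4) to 2.62 (library 3), against 1.38. Values near 0 changed sign: the log2 genotype difference of Alb on chow was -0.0030 with size factors and with DESeq2 and -0.0024 with no filter, that of Mup3 was -0.019, -0.019 and -0.018, and -0.0039 with unscaled totals, where the diet average of Mup21 was -0.0064.

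Leaving out each library in turn gave 98 to 896 called rows for diet in wild-type livers, 144 to 293 in MLL4 het livers and 546 to 1388 on average, 12 to 177 for genotype on HFD, 1 to 268 on chow and 23 to 722 on average, and 0 to 14 for the interaction. The fewest calls came without library 1 or 2, apart from the interaction, where several fits gave 0. The log2 ratio of MUP to Alb counts ran 0.289 to 0.829 for diet in wild-type livers and 0.204 to 0.743 for genotype on chow. For diet in wild-type livers Mup5 ran -0.026 to 0.50 on the log2 scale. In MLL4 het livers the ranges for diet were -1.24 to 0.55 for Mup6, -0.0051 to 0.28 for Mup13, -0.0031 to 0.25 for the merged row and -0.069 to 0.32 for Mup9, and on average -0.16 to 0.066 for Mup20, -0.054 to 0.070 for Mup21 and -0.081 to 0.82 for Mup6. For genotype they were -0.059 to 0.14 on HFD, -0.078 to 0.059 on chow and -0.034 to 0.067 on average for Mup3, -0.92 to 0.31 on chow for Mup6, -0.050 to 0.062 on chow for Alb and -0.042 to 0.19 on average for Mup20. For the interaction they were -0.41 to 0.034 for the sum, -0.42 to 0.076 for Mup1, -0.43 to 0.077 for Mup12, -0.34 to 0.18 for Mup5, -0.47 to 0.016 for Mup8 and -0.050 to 0.14 for Mup3. The call of Mup21 for genotype was lost in 5 of these 8 fits. The causes were not tested.

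With 2 libraries a group, the spread rests on few values, and where 1 library was left out its partner was assumed to vary like the other groups. Exact permutation could not give a p under 0.0556. Many tests of shares and of ratios to Alb reached that value, over rows that are not independent. Levels of Mup4 and Mup6 are not resolved at this depth, and the merged row cannot be split into its genes. No paired analysis was possible because library numbers run from 1 to 8 and no number recurs in another group.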
